A study of Mus musculus with 6 samples.

Results

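The 10 genes described here make the enzymes that crosslink and hydroxylate collagen and the chaperone that accompanies its folding. They are the lysyl oxidases Lox, Loxl1, Loxl2, Loxl3 and Loxl4, the lysyl hydroxylases Plod1, Plod2 and Plod3, the prolyl 4-hydroxylase subunit P4ha1, and Serpinh1, the chaperone also called HSP47. They were taken by gene name from a table of group means and are 10 of its 19270 genes. RNA was sequenced in bulk from the proximal end of the mouse incisor, which grows throughout life, to ask which transcripts differ after loss of Arid1b, a subunit of the BAF chromatin remodelling complex. The 3 mutant samples were from Gli1-CreER;Arid1bfl/fl mice. The 3 control samples carry the genotype label wild type, while the study's methods give Arid1bfl/fl mice that received the same tamoxifen. All samples were collected at 1 month of age, 4 days after tamoxifen. Tamoxifen switches on the CreER recombinase only in cells that express Gli1, so the floxed allele is kept in the other cells of the tissue, and Gli1 is expressed in mesenchymal and epithelial cells of the proximal incisor. The labels name the tissue as incisor, and the methods describe dissected proximal mesenchyme.

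The values used here are 1 per gene and group, the authors' mean of a normalized expression value that has no unit. The columns of the authors' own comparison were not used. Values per gene and sample were not analysed here, so the spread between mice is unknown, no difference below was tested, and each ratio of mutant to control mean is a description. A summary of the 6 libraries gave their scaling and depth. The upper quartile of the normalized values lay between 44.57 and 44.58 in every library. If the lowest value in a library stands for no read plus an offset of 1, the libraries held between 37123643 and 49594469 reads. Only part of the low group means lay where this reading would put them. Of the means that would stand for up to 5 reads in a group, 52 of 80 in controls and 34 of 64 in mutants did. Each of those lay within 0.01 of a read of a value given by whole reads split over the 3 libraries. How many means would do so by accident was not computed. On that reading, counting error alone gives the log2 ratios of the 10 genes a standard error between 0.00491 for Serpinh1 and 0.0345 for Loxl1. This does not cover differences between mice. The highest value in each library belonged, as far as the group means show, to the ribosomal RNA transcript CT010467.1, which took 4.75% of all values in mutant 1 and 7.35% to 9.85% in the other 5 libraries.

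The targeted gene was lower in the mutants. The authors' mean for Arid1b was 97.6 in controls and 38.0 in mutants, a log2 ratio of −1.36. Mesenchymal and odontoblast markers were present in both groups. Of 8 dental mesenchyme markers, 3 were higher and 5 lower in mutants, with summed means of 2598 and 2211. Vim, the most abundant, had means of 1463 and 1208, and Gli1, the gene whose promoter drives the CreER, was lower, with means of 106 and 46.1. By genotype only the mutants carry Gli1-CreER, so for Gli1 the presence of that allele and loss of Arid1b cannot be told apart. Igfbp6, another marker of this list, was higher by more than 1.5-fold, at low means of 6.045 and 9.60. The mean for Dspp, which encodes the main noncollagenous dentin protein, was 5179 in controls and 4136 in mutants. The 5 markers of cycling cells were higher in mutants, with sums of 418 and 513 and Mki67 as the most abundant, and Ccnb1 was past 1.5-fold, with means of 22.9 and 35.6. Epithelial markers were present too and were higher in the mutants for 11 of 11 genes, each by more than 1.5-fold, and their summed means were 1749 in controls and 10574 in mutants. The most abundant of them in controls was the enamel protein gene Ambn, at 617 in controls and 3360 in mutants, and none was near the lowest value of the table. The 4 erythroid genes were lower in mutants, with summed means of 43.3 and 14.6 and Hbb-bs as the most abundant. The 4 osteoclast genes had sums of 102 and 121, with Ctsk as the most abundant, at 79.4 and 76.0. Acp5 and Mmp9 were higher in mutants by more than 1.5-fold, and Ocstamp was near the lowest value in controls. The 4 odontoblast genes were lower in mutants, with sums of 6364 and 5053, and Dmp1 differed most, at 68.1 and 23.7. Of 5 osteoblast markers, 3 were lower and 2 higher, with sums of 2060 and 1770. Bglap, the most abundant of them, and Alpl were lower by more than 1.2-fold. Bglap had means of 882 and 732, and Alpl of 817 and 672. The 5 macrophage markers were higher in mutants, 2 of them by more than 1.2-fold, with sums of 275 and 307 and Lyz2 as the most abundant. Of 5 perivascular markers, 2 were lower and 1 was higher by more than 1.2-fold, with sums of 741 and 655 and Rgs5 as the most abundant, and the higher gene was Acta2, with means of 63.4 and 88.9. The 3 chondrocyte markers in the table had sums of 330.5 and 266, mostly from Sox9, at 299 and 251. Acan was lower in mutants, with means of 30.6 and 14.1, and Comp was higher at low means, 0.684 and 1.14. Sex-linked genes also differed between the groups. The Y-linked genes Ddx3y, Eif2s3y, Uty and Kdm5d were at or near the lowest value in controls, while Ddx3y had a mean of 65.3 in mutants, and Xist was 3368 in controls and 814 in mutants, 24.2% of the control mean. None of the 10 genes lies on a sex chromosome, but sex and genotype cannot be told apart in these means. The part of these cell types, of cycling cells and of sex in the differences below was not tested. In bulk RNA, fewer cells of a type and less RNA per cell cannot be told apart.

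Collagen chains are modified while they enter the endoplasmic reticulum. Prolyl 4-hydroxylase hydroxylates proline, which keeps the triple helix stable at body temperature, and lysyl hydroxylases hydroxylate lysine, which sets which crosslinks can form later and where sugars are attached. HSP47 binds the folded helix and accompanies it on its way to the Golgi. After secretion, lysyl oxidases convert lysine and hydroxylysine to reactive aldehydes that join neighbouring molecules into fibrils. In the tooth these steps shape the type I collagen of predentin, pulp and periodontal ligament.

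All 10 genes were expressed, with means from 27.5 to 1626, and their differences between groups were small and not all in the same direction. The mutant mean was lower for 8 genes and higher for 2, while 49.5% of all genes were lower and 50.5% were higher. With Plod3 apart, whose log2 ratio of −0.0024 turned positive when the groups were scaled to the same total, each gene kept its direction under every scaling tried. None of the 10 differed by more than 1.5-fold, a size passed upward by 7.37% and downward by 5.8% of all genes. At 1.2-fold, Loxl2 and Plod2 were higher, against 16% of all genes, and Loxl3, Loxl4, Plod1 and Serpinh1 were lower, against 15.7%. Many of those genes have low means. Among the 10311 genes whose mean over both groups reached 10, as it did for all 10 genes, 3.06% differed by more than 1.5-fold, and 6.54% were higher and 6.37% lower by more than 1.2-fold. That split was 674 higher and 657 lower, and it became 961 and 435 with both groups scaled to the same total. The median log2 ratio of the 10 genes was −0.24, while that of these 10311 genes was 0.00066. Genes with high means leaned lower. Among the 2057 genes whose mean reached 100, as it did for Serpinh1, Lox and Plod2, 56.8% were lower in mutants. By more than 1.2-fold, 8.60% of them were lower and 3.50% higher.

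The 10 genes spanned a 77.5-fold range of control level per kilobase of exon, the scale used here to compare genes. Serpinh1 was highest, at 666 in controls and 500.2 in mutants, and ranked 39 of the 18840 genes with an exon length by the mean of both groups. Lox and Plod2 came next, with Lox at 84.3 and Plod2 at 73.1 in controls and Lox at 70.5 and Plod2 at 96.1 in mutants. Their order in controls depends on the length used, since per kilobase of the longest transcript Lox stood at 85.0 and Plod2 at 107.6, and Plod2 was above Lox in mutants by both lengths. P4ha1 followed at 21.1 and 18.2. The other 6 genes lay between 8.59 and 14.9 in controls and between 7.14 and 15.3 in mutants, and since the spread between mice is unknown, neighbours in this order cannot be told apart.

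**Figure D1:**
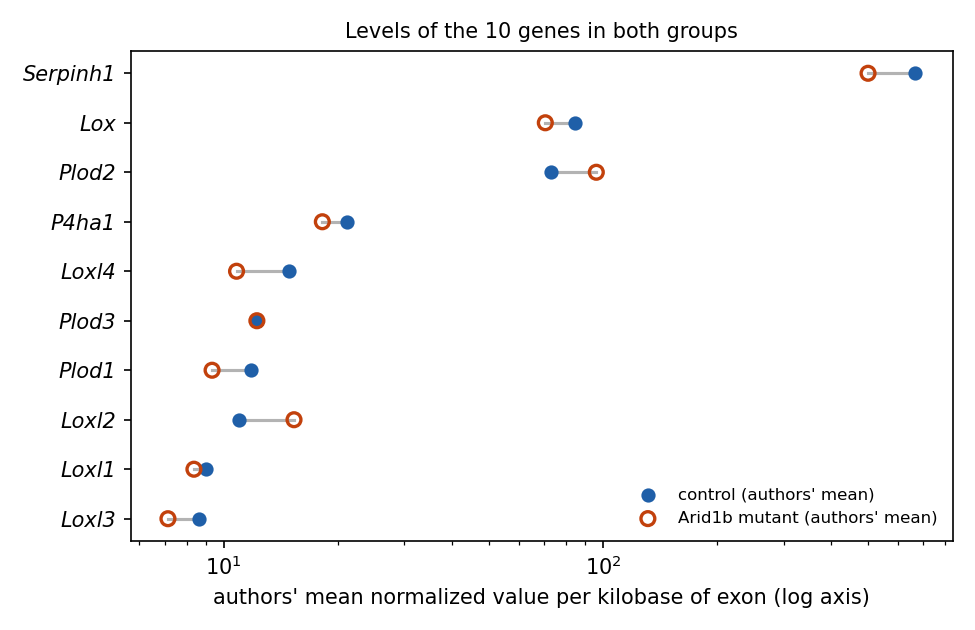
Authors' mean normalized value per kilobase of exon, on a log axis, for each of the 10 genes in control (filled) and Arid1b mutant (open) incisors; no error can be drawn from group means. Serpinh1 lies far above the other genes, and the open circle lies to the right of the filled one for Loxl2 and Plod2.

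Within the lysyl oxidases, Lox was the most abundant gene and Loxl2 the one that was higher in mutants. Lox, the founding member of the family, which acts on fibrillar collagen and elastin (chr18:52516067-52529867, minus strand, GRCm38), had a mean of 403 in controls and 337 in mutants. Its mutant mean was 0.836 of the control mean, a log2 ratio of −0.26. Loxl1, which is needed to keep elastic fibres in adult tissue (chr9:58287738-58313186, minus strand), had means of 29.6 in controls and 27.5 in mutants, a log2 ratio of −0.10. Both genes were within 1.2-fold, Lox just inside it.

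Loxl2, Loxl3 and Loxl4 share scavenger receptor domains ahead of the catalytic domain. Loxl2, which crosslinks type IV collagen of basement membranes (chr14:69609068-69695834, plus strand), had means of 59.5 in controls and 82.9 in mutants. This 1.39-fold difference, a log2 ratio of 0.48, was the largest among the 10 genes, and 4.46% of genes with a mean of at least 10 differed by more in either direction. Loxl4 (chr19:42593982-42612813, minus strand) differed by nearly as much in the other direction, with means of 62.8 in controls and 45.6 in mutants, a log2 ratio of −0.46. Loxl3, whose loss in mice gives a cleft palate (chr6:83034173-83052562, plus strand), had means of 39.6 and 32.9, a log2 ratio of −0.27, and was only just past 1.2-fold. It was inside 1.2-fold with a pseudocount of 1 and with both groups scaled to the same total, with or without the 100 highest genes. The close relatives Loxl2 and Loxl4 thus stood in opposite order in the groups, since per kilobase Loxl4 was 1.35 times Loxl2 in controls and 0.706 times in mutants.

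Summed per kilobase, the 5 lysyl oxidases had a level of 128 in controls and 112 in mutants, a log2 ratio of −0.19. Lox made up 66.0% of that sum in controls and 62.9% in mutants. The share of Loxl2 was 8.61% in controls and 13.7% in mutants, and that of Loxl4 was 11.7% and 9.65%. Loxl1 and Loxl3 held shares between 6.36% and 7.45% in both groups. The sum was therefore set by Lox in both groups, and the change in makeup lay mostly in Loxl2.

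The lysyl hydroxylases differed from each other in direction. Plod2, which hydroxylates lysines in the telopeptides at the ends of the chains and so leads to hydroxylysine-derived crosslinks (chr9:92542223-92608428, plus strand), had means of 394 in controls and 518 in mutants. The mutant mean was 1.31 times the control mean, a log2 ratio of 0.39, and 6.58% of genes with a mean of at least 10 differed by more. Plod1, which acts mainly on lysines within the helix (chr4:147909753-147936767, minus strand), had means of 80.1 in controls and 63.1 in mutants, a log2 ratio of −0.34. Plod3, which also transfers sugars to hydroxylysine (chr5:136987019-136996648, plus strand), had nearly the same mean in both groups, 55.4 in controls and 55.3 in mutants. Its counting interval of the log2 ratio, at 95%, ran from −0.05 to 0.05, which does not cover differences between mice.

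Plod2 was also the most abundant of the 3 genes per kilobase. It made up 75.2% of their sum in controls and 81.7% in mutants, while Plod1 made up 12.2% and 7.93% and Plod3 12.6% and 10.4%. The sum was 97.2 in controls and 118 in mutants, a log2 ratio of 0.28, so the summed level of the family was higher in mutants although the mean of Plod1 was lower and that of Plod3 nearly equal. The level of Plod2 was 6.17 times that of Plod1 in controls and 10.3 times in mutants. That is a 1.67-fold difference in the ratio of Plod2 to Plod1, the genes of the family with the highest and lowest log2 ratios. The level of Plod2 was 5.96 times that of Plod3 in controls and 7.85 times in mutants, a 1.32-fold difference. A ratio of genes within each group does not depend on how the groups are scaled. Plod2 and Loxl2 were thus higher in mutants under every scaling tried, as Plod3 was under the scalings to the same total.

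P4ha1 encodes the catalytic subunit of the main form of collagen prolyl 4-hydroxylase (chr10:59323296-59373304, plus strand). Its mean was 86.8 in controls and 75.0 in mutants, a log2 ratio of −0.21, which is within 1.2-fold. Of 9 other genes of proline hydroxylation, 8 were lower in mutants and 7 were within 1.2-fold, with a median log2 ratio of −0.13 that was −0.06 with both groups scaled to the same total. The alternative catalytic subunit P4ha2 had means of 157 and 135, and the ratio of P4ha1 to P4ha2 per kilobase was 0.841 in controls and 0.843 in mutants. P4hb, the subunit that both share and the most abundant gene of the list, had means of 839 and 788. P4ha1 thus kept its balance with P4ha2. P3h2, a prolyl 3-hydroxylase, had means of 21.6 and 14.4 and was barely past 1.5-fold, and inside it with a pseudocount of 1 and with both groups scaled to the same total, with or without the 100 highest genes. P4ha3 was higher in mutants by more than 1.5-fold, at low means of 3.42 in controls and 6.77 in mutants.

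Serpinh1 encodes a chaperone that binds only procollagen (chr7:99345376-99353239, minus strand). Its mean was 1626 in controls and 1222 in mutants. The mutant mean was 0.751 of the control mean, a log2 ratio of −0.41, and 6.11% of genes with a mean of at least 10 differed by more. None of the 9 other folding and glycosylation genes passed 1.2-fold, 7 of them were lower in mutants, and their median log2 ratio was −0.15, or −0.09 with both groups scaled to the same total. The most abundant of them in controls was Sparc, a collagen-binding matrix protein, with means of 3618 and 3303. The lowest log2 ratio of that list was −0.26, for the disulfide isomerase Pdia3. General chaperones and folding enzymes counted with the endoplasmic reticulum stress genes ranged on both sides of Serpinh1, with log2 ratios of −0.50 for Pdia6, −0.44 for Calr, −0.40 for Hsp90b1, −0.39 for Sdf2l1, −0.29 for Pdia4, −0.15 for Canx, −0.01 for Hspa5 and 0.36 for Dnajb9.

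The collagen chains that HSP47 binds were compared next. Of 11 fibrillar collagen genes, 6 were lower in mutants by more than 1.2-fold and Col3a1 was higher. Among all genes with a mean of at least 10, 6.37% were lower and 6.54% higher by that much. Where the mean reached 100, 8.60% were lower and 3.50% higher. The median log2 ratio of the 11 collagen genes was −0.30. The count of lower genes was 2 with both groups scaled to the same total, with a median of −0.24. Col1a1, the most abundant, had means of 21211 in controls and 17127 in mutants, a log2 ratio of −0.31. Per kilobase, Serpinh1 stood at 20.6% of Col1a1 in controls and 19.2% in mutants, and Lox at 2.61% and 2.70%, so both stayed near the same level relative to Col1a1. Plod2 was at 2.26% of Col1a1 in controls and 3.68% in mutants, a 1.63-fold difference, while Plod1 was at 0.367% and 0.358%. Col3a1, which makes the type III collagen of soft pulp and ligament, had means of 1764 and 2187, and so was higher in mutants like Plod2 and Loxl2. Col24a1, a minor fibrillar chain found in developing bone, was the single chain past 1.5-fold, with means of 58.8 and 33.3.

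Genes that act on procollagen between folding and crosslinking were compared by the same counts. All 8 procollagen export genes were within 1.2-fold, with a median log2 ratio of 0.01, and the most abundant was the transcription factor gene Creb3l2, at 370 in controls and 335 in mutants. Of 9 processing genes, 6 were within 1.2-fold, 2 were higher by more and 1 was lower, with a median log2 ratio of 0.03. Pcolce, the enhancer of procollagen C-proteinase and the most abundant of these, was lower, with means of 363 and 294, but was inside 1.2-fold with both groups scaled to the same total. Tll1, a proteinase that removes the C-propeptide and can activate the lysyl oxidase precursor, was higher by 2.26-fold, from 4.73 in controls to 10.7 in mutants, a larger ratio than that of any of the 10 genes. Adamts2, which removes the N-propeptide, had means of 93.8 and 115. Over these lists and those of proline hydroxylation and folding, 2 of 35 genes were higher and 1 was lower by more than 1.5-fold, and at 1.2-fold 3 were higher and 2 lower. Of the 30 genes among them with a mean of at least 10, 1 was lower by more than 1.5-fold, beside 3.06% of all such genes in either direction. At 1.2-fold 1 was higher and 2 were lower, 10% of the 30, which is near the 12.9% of all such genes.

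The partners of lysyl oxidases in elastic fibres and fibrils were mostly lower in mutants, like Lox. Of 13 such genes, 7 were lower and 1 was higher by more than 1.2-fold. The shares among all genes with a mean of at least 10 were 6.37% and 6.54%, and 8.60% and 3.50% where the mean reached 100. The 13 genes had a median log2 ratio of −0.27, and 6 were lower and 2 higher with both groups scaled to the same total. Fn1, the most abundant in controls, binds lysyl oxidase and had means of 1469 and 1140. Fmod, a proteoglycan that brings lysyl oxidase to collagen, had means of 1140 in controls and 749 in mutants and was past 1.5-fold, though not with both groups scaled to the same total, where its log2 ratio was −0.55. Mfap5 was past 1.5-fold at means below 1. Postn, which binds the proteinase that activates Lox, was the gene higher by more than 1.2-fold without rescaling, with means of 264 and 333. Lox, at a log2 ratio of −0.26, was close to the median of this list.

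Hypoxia is known to raise P4ha1, Plod2 and Lox, and Serpinh1 works beside the general chaperones of the endoplasmic reticulum, so genes of the hypoxia and endoplasmic reticulum stress responses were compared too. At 1.2-fold, 15.7% of all genes were lower and 16% higher, and 6.37% and 6.54% of those with a mean of at least 10. Where the mean reached 100, 8.60% were lower and 3.50% higher. Of 12 endoplasmic reticulum genes, 5 were lower and 1 was higher by more than 1.2-fold, with a median log2 ratio of −0.09. With both groups scaled to the same total, 4 were lower and 2 higher, and the median was −0.03. The chaperone gene Hsp90b1, the most abundant, had means of 1267 and 961, while Hspa5, which encodes the chaperone BiP, had means of 768 and 761. Of 12 hypoxia response genes, 9 were within 1.2-fold, 3 were higher by more and none was lower by more, with a median log2 ratio of −0.0034 that turned positive with both groups scaled to the same total. Ldha, the most abundant, had means of 177 and 176. The 3 higher genes were Hk2, with means of 42.8 and 54.3, and Egln3 and Car9, with means below 1 in both groups. Car9 was past 1.5-fold, with a log2 ratio of 1.13. With a pseudocount of 1, no gene of the list was past 1.5-fold and 2 were higher by more than 1.2-fold. Among the genes known to respond to hypoxia, Plod2 was thus higher in mutants by more than 1.2-fold, like Hk2. The means of P4ha1 and Lox were lower but within 1.2-fold.

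**Figure D2:**
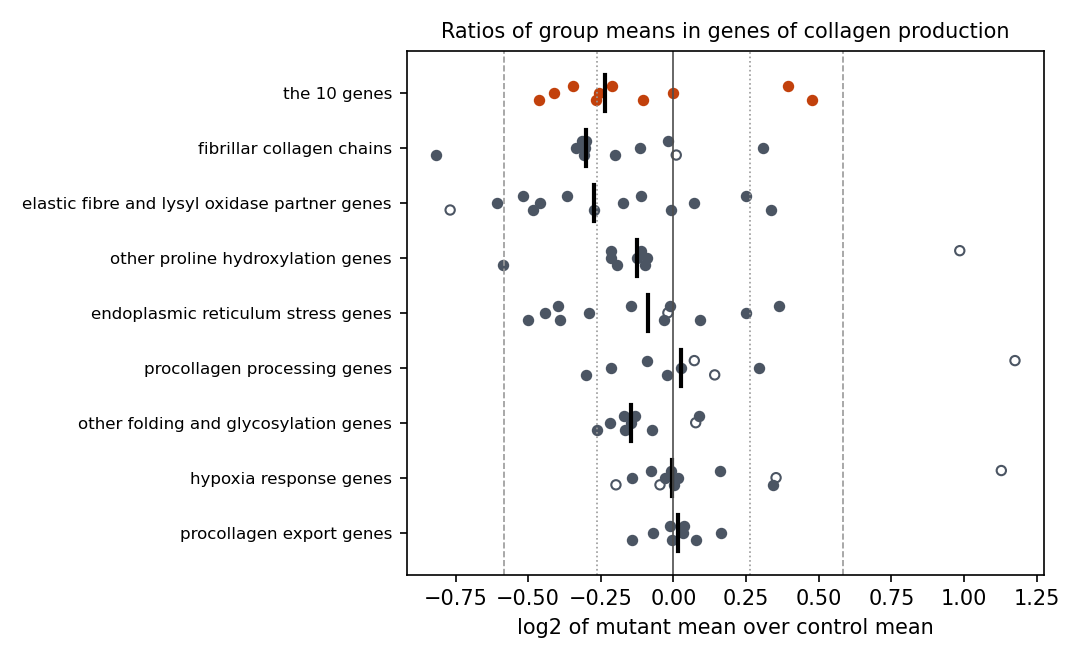
Log2 ratio of the mutant to the control mean for the 10 genes (top line) and the genes of 8 related lists; each point is a gene, open where its mean over both groups is under 10, and the black bar is the median of the line. Dotted and dashed lines mark 1.2-fold and 1.5-fold differences. No point of the top line lies past 1.5-fold, and its 2 points on the right are Plod2 and Loxl2.

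Reads of some of these genes could be shared with other genes, since the sources used here do not say whether counting used strand. In the GENCODE annotation, exons of 5 of the 10 genes overlap those of another gene, and for 4 of them that gene is in the table. Loxl3 shares 535 exon bases, 11.6% of its exon length, with Htra2 on the opposite strand, and Plod3 shares 529 bases, 11.7%, with Znhit1. Htra2 had means of 21.4 in controls and 20.5 in mutants, and Znhit1 of 13.4 and 12.8. Loxl2 shares 301 bases with the antisense gene Gm27177, which had means of 5.30 and 3.92, and Plod2 shares 346 bases with Gm38391, at 5.42 and 5.11. The partner of Plod2 was within 1.2-fold, and that of Loxl2 was lower in mutants by more than 1.2-fold. The part of shared reads in the differences of these genes was not tested.

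Promoter sequences from RefSeq were at hand for 5 of the 10 genes, Plod1, Plod3, P4ha1, Serpinh1 and Loxl4. The 250 bases before each start were searched on both strands. The letters GGGCGG, or CCGCCC on the other strand, known as the GC box, are in 32.7% of all 32851 promoters and in 4 of these 5. The 4 are Plod1, P4ha1, Serpinh1 and Loxl4. No promoter of Loxl2 or Plod2, the genes with a higher mean in mutants, was compared, so the letters cannot be set against the direction of the difference. The letters ACGTG, the core of the hypoxia response element, are in 16.6% of all promoters and in those of Plod3, Serpinh1 and P4ha1. The letters CCAAT are in 33.8% of all promoters and in that of Plod3. The heat shock element units GAANNTTC and TTCNNGAA, in 6.69% and 7.17% of all promoters, are in none of the 5. A match of letters is a description and not a binding site. The 60 bases around the GC box nearest to the start are shown for the 4 genes that share it, 5′ to 3′ on the strand of the gene, with GGGCGG or CCGCCC in capitals. The build is GRCm38.p6, and the stretches are chr4:147936777-147936836 (minus strand), chr7:99353251-99353310 (minus strand), chr10:59323053-59323112 (plus strand) and chr19:42612807-42612866 (minus strand), in the order of the lines.
Plod1: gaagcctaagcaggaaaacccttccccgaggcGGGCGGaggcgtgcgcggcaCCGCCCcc
Serpinh1: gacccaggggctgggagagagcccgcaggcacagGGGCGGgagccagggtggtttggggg
P4ha1: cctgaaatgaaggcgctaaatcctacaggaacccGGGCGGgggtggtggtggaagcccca
Loxl4: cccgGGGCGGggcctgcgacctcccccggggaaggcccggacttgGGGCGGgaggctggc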

How the data were processed

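RNA of 3 control and 3 Arid1b mutant incisor samples was extracted and sequenced in bulk, and samples were grouped by their titles. The authors processed the reads in Partek Flow against mm10, and the submitters' processing notes name TopHat2 2.0.8. The method of counting, the annotation and the strand setting are not given in the sources used here. The deposited values are a normalized signal, given by the authors as 1 mean per gene and group, with a summary of each library. Averaged over all genes, a group's values match the average of its 3 libraries, so the group values are arithmetic means of the normalized values. The 4 columns of the authors' own comparison (p-value, FDR, ratio and fold change) were not used, nor were 2 other columns of the library summary.

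Ratios of mutant to control means were computed without a pseudocount for all 19270 genes in Python 3.11.15 with pandas 2.3.3 and numpy 2.4.6, and plots were drawn with matplotlib 3.10.9. With group means alone the planned fit for values per sample could not be run, so no test was made. Exon lengths (union of all exons) and coordinates came from GENCODE vM21 on GRCm38, the assembly of mm10, matched by symbol for 10 of the 10 genes and 18840 of all genes. Depth was estimated by dividing a library's summed values by its lowest value and taking off 1 offset per gene. This is an inference, and the intervals built on it cover counting error only. The counts past each threshold and the scaling to the median gene were checked with 200 genes given known ratios without noise. The other steps, the depth estimate among them, were not checked in this way. Genes named are all 10 genes, Arid1b, each gene of 8 related lists past 1.5-fold with a mean of at least 10 in either group, and the most abundant gene of each list, with markers of cell types and sex. P4ha2, P4ha3, Pdia3, Pdia4, Pdia6, Calr, Canx, Sdf2l1, Dnajb9, Adamts2, Hk2, Egln3, Col3a1, Mfap5, Postn, Hspa5, Car9, Htra2, Znhit1, Gm27177, Gm38391 and CT010467.1 fall outside that rule and were named after their values were seen. The 10 genes and the lists were chosen with earlier results of these data known. Alternatives were other thresholds, a pseudocount of 1, other scalings, other background genes and the length of the longest transcript.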

Additional observations from a re-analysis of the deposited data

How the results depend on the processing

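The number of the 10 genes past 1.5-fold was 0 at that threshold and at 2-fold, with a pseudocount of 1 and under the 3 other scalings, and 6 at a threshold of 1.2. The share of genes past 1.5-fold in the background was 13.2% over all genes, 3.06% where means under 10 were left out and 1.94% where means under 100 were. The median log2 ratio of the 10 genes, −0.24, was −0.17 with both groups scaled to the same total, −0.12 as a mean in place of a median and −0.0024 for the lysyl hydroxylases alone. Scaling to the same total added 0.06 to every log2 ratio. The log2 ratio of Plod3 was then 0.0582, and 0.00615 when the 100 highest genes were left out of the total. The median of the hypoxia response genes was 0.0572 and 0.0052 in the same settings. With alternatives chosen after seeing the data, the fibrillar collagen genes lower by more than 1.2-fold were 6, and 2 with the same total, and 8 of the 10 genes were past 1.1-fold and 4 past 1.3-fold, and 5 were past 1.2-fold with a pseudocount of 1 and with the same total, with or without the 100 highest genes. With the length of the longest transcript in place of all exons, Plod2 stood above Lox in controls, and the level of Plod1 was 1.65 times as high.

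No paired analysis was possible because the tables used here hold no values per gene and sample. Leaving out each replicate was not run for the same reason. The spread between mice cannot be read from group means. Differences between the groups in cell type markers and in sex-linked genes limit these comparisons as well.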
